A study of Mus musculus with 192 samples.

Results

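Inner ear genes were followed in the temporal bone (TpB) of mice that had stayed on the International Space Station (ISS). The 9 genes were Coch, Otos, Otor, Otog, Otoa, Tecta, Otof, Myo7a and Pou4f3, taken by gene name from the 54752 genes of the table. The rule is a list of names with no threshold on a measured value, but the list was drawn up with earlier results of these data known. Expression was measured by RNA sequencing in 4 groups of male mice labelled C57BL/6 (C57BL/6J in the study's methods) and 12 weeks of age. By the methods, 12 weeks was the age before launch, so flight mice were older when dissected. The ground experiment simulated that of the flight, and the age of ground mice at dissection is not given, so no age difference between groups is implied. The groups were wild type kept on the ground (GC_WT), wild type flown (FL_WT), Nrf2 knockout kept on the ground (GC_KO) and Nrf2 knockout flown (FL_KO). Knockout mice carried a germ line deletion in Nfe2l2, the gene of the stress response factor Nrf2, in all cells. Flight mice lived on the ISS for about a month and were dissected after their return, whereas ground mice were housed singly in the same cage units. Flight mice were dissected in San Diego in May, and the ground experiment ran later that year, from September to October, at Tsukuba in Japan. Flight therefore cannot be told apart from site, date and dissection session. By the methods, knockout mice were given ketamine and xylazine before the experiment to leave out those with a shunt in the liver. No such step is described for wild type, so genotype cannot be told apart from this selection. FL04, a knockout flight mouse with intestinal hemorrhage, was left out, so that TpB had 6, 6, 6 and 5 libraries in the order of the groups above and 23 in all. Mandibular bone (MdB) of 11 mice, 3 per group and 2 in FL_KO, served as reference.

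The temporal bone houses the cochlea and the vestibular organs. In them, hair cells turn movement into nerve signals under gels that lie on their hair bundles (the tectorial membrane of the cochlea, the otoconial membranes and the cupulae of the vestibular organs), and fibrocytes of the lateral wall recycle the potassium that passes through the hair cells. Otoconia, the crystals on the gravity-sensing organs, carry the weight by which linear acceleration is felt. Coch encodes cochlin, an abundant protein of the inner ear matrix, Otos otospiralin of the fibrocytes, and Otor the secreted protein otoraplin. Otog (otogelin) and Tecta (alpha-tectorin) encode proteins of the acellular gels, and Otoa encodes otoancorin, which attaches gels to the cells beneath. Otof (otoferlin) serves vesicle release at the hair cell synapse, Myo7a is an unconventional myosin of the hair bundle, and Pou4f3 is a transcription factor of hair cells.

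In GRCm38 (GENCODE vM21), Otog (chr7:46240987-46311434), Myo7a (chr7:98051060-98119524) and Otoa (chr7:121081650-121163097) share chromosome 7, Coch lies at chr12:51593341-51605771, Otos at chr1:92644218-92648841, Otor at chr2:143078473-143081713, Otof at chr5:30367062-30461932, and Tecta at chr9:42329619-42399929. Tecta was the only member with an exon that overlaps an exon of another annotated gene, the antisense gene Gm47629, whose mean level in TpB was 0.0357 TPM. The 250 bases upstream of the RefSeq start (GRCm38.p6, sense strand, 5′ to 3′) are shown for the 3 genes of fibrocytes and matrix, Coch at chr12:51593091-51593340 (plus strand), Otos at chr1:92648842-92649091 (minus strand) and Otor at chr2:143078143-143078392 (plus strand) because they are the members with the highest levels in TpB. Capitals mark a TATAAA motif.
Coch: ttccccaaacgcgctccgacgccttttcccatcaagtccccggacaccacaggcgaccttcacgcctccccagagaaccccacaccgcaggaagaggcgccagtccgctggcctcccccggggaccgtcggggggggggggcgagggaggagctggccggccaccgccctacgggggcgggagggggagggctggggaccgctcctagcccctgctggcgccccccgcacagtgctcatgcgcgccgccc
Otos: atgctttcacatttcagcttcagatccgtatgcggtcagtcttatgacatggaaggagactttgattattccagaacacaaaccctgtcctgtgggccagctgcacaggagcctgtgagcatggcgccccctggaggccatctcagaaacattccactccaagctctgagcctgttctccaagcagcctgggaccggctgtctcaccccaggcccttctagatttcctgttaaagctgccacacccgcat
Otor: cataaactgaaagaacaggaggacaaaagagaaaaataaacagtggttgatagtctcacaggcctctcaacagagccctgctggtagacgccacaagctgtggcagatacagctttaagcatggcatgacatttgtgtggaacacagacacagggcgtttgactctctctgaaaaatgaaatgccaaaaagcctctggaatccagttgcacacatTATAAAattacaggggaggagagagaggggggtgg
Upstream sequence was found for 7 of the 9 genes, with 2 starts each for Tecta and Myo7a. Both strands were searched for TATAAA (the TATA box), TGACNNNGC (the core of the antioxidant response element to which Nrf2 binds) and ATTTGCAT (the octamer of POU factors). Among 32851 upstream regions of the same length, TATAAA was present in 12.4%, TGACNNNGC in 10.2% and ATTTGCAT in 1.60%. Otor held TATAAA once and Otoa held TGACNNNGC once, and no other match was found in the regions of these 7 genes.

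Depth was even, with 13.5 to 15.1 M counts per TpB library and 14.3 to 14.7 M per MdB library. Nfe2l2 separated the genotypes without overlap, with 55.5 to 95.0 TPM (transcript abundance scaled to transcript length and library total) in wild-type and 18.3 to 36.1 TPM in knockout TpB, and with 89.3 to 109 against 30.3 to 37.5 TPM in MdB. By their library numbers, mice 01 to 06 and mice 07 to 12 form a pair of blocks, called library sets 1 (11 libraries) and 2 (12 libraries) here, and each group has mice in both. The libraries also differed in what else they held. Summed over lists of marker genes, skeletal muscle went from 11.5 TPM in GC01 to 24366 TPM in GC04, and cerebrum neurons from 80.9 to 908 TPM. Middle ear epithelium went from 62.2 TPM in GC03 to 60375 TPM in GC12, and its gene Bpifb1 alone from 2.37 to 54642 TPM. Foxj1 and Tekt1 of the same list went from 9.79 to 53.4 and from 3.57 to 19.5 TPM. The RNA of these lists thus varied widely between TpB libraries, and amount of tissue and RNA per cell cannot be told apart.

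All 9 genes were detected in all 23 TpB libraries, and also in TpB of FL04, where detection means a count of at least 1. The smallest counts were 43 for Pou4f3 and 56 for Tecta, both in GC07. Coch was highest, with 1825 ± 781 TPM (mean ± SD, n = 23) and a range of 831 to 3857 TPM. Otos followed with 431 ± 274 TPM, and both genes stood far above the others. Otor had 51.5 ± 22.7 TPM, Otog 36.9 ± 19.4 TPM, Otoa 22.5 ± 11.1 TPM and Otof 13.9 ± 7.07 TPM. Myo7a had 9.83 ± 2.10 TPM, Pou4f3 6.54 ± 3.12 TPM and Tecta 2.09 ± 0.851 TPM. TPM is corrected for transcript length, so that levels can be compared between genes. Only between Otos and Otor did the ranges of neighbours in this order not meet, at 130 TPM for the lowest Otos and 94.4 TPM for the highest Otor. Within a library, however, the order was nearly fixed. Coch exceeded Otos, Otos exceeded Otor, Otog exceeded Otoa, Otoa exceeded Otof and Pou4f3 exceeded Tecta in 23 of 23 libraries, Myo7a exceeded Pou4f3 in 22, Otor exceeded Otog in 21 and Otof exceeded Myo7a in 18. The difference of means was smaller than the larger SD of the pair for Otor and Otog, Otog and Otoa, Otoa and Otof, and Otof and Myo7a.

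**Figure D1:**
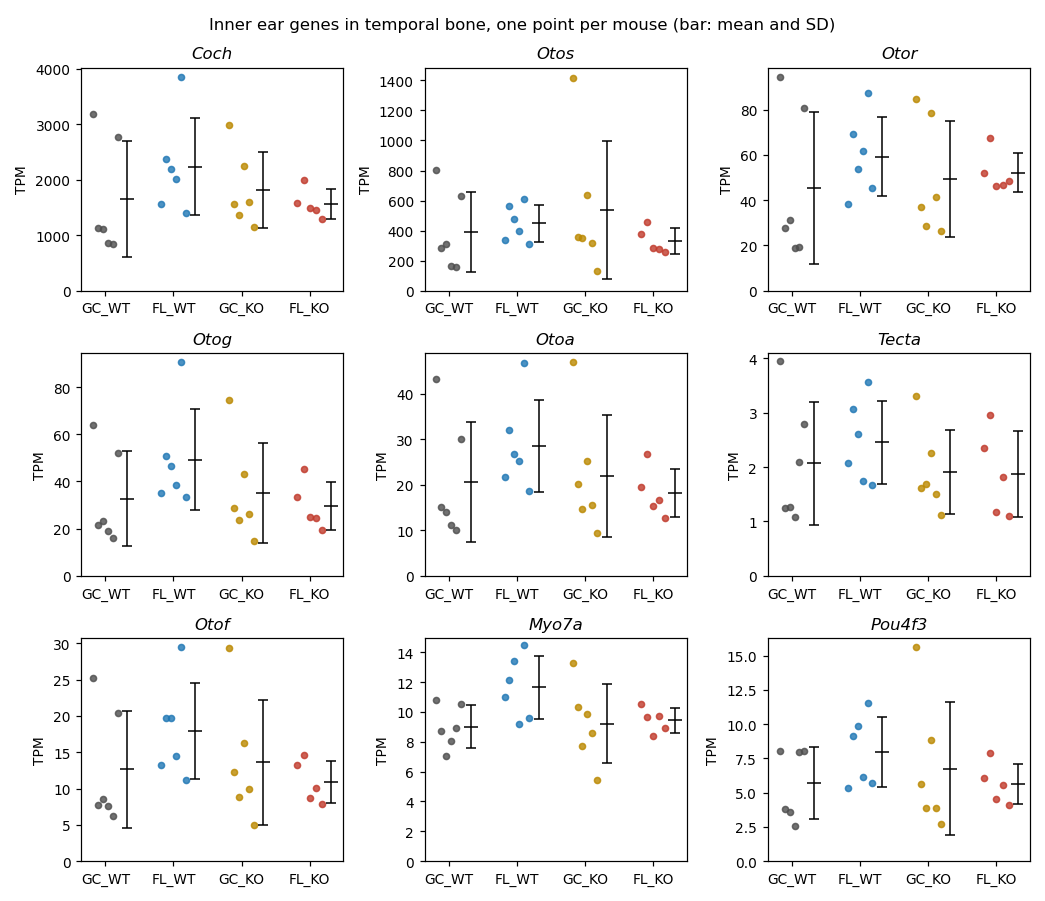
Levels (TPM, linear axes from 0) of the 9 genes in temporal bone, with 1 point per mouse and the mean and SD of each group of 5 or 6 mice beside the points. The groups overlap for each gene, and for Coch the spread within GC_WT alone (831 to 3175 TPM) is wider than the distances between the group means.

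MdB, a bone without inner ear, served as the background for these genes, and each of them was lower there. All 9 genes were called higher in TpB (edgeR, quasi-likelihood test, adjusted p under 0.05), where 44.5% of the 19665 genes tested were called in this direction and 79.6% in either. In 8 of the 9 the lowest TpB library was above the highest MdB library in TPM, against 20.8% of the genes tested. Otof was the exception, since GC12 had 4.94 TPM in TpB and FL06 had 5.06 TPM in MdB. The median difference of all genes tested was 0.12 on the log2 scale. With TPM in place of scaled counts it was 0.30 on log2(TPM + 1) and 0.39 on log2(TPM + 0.1). These medians are small beside most of the changes given here, but less so beside those of Otof and above all Myo7a. In bulk RNA, fewer cells of a type and less RNA per cell cannot be told apart.

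Among the genes of fibrocytes and matrix, Coch in MdB was at 60.1 ± 10.1 TPM (SD, n = 11), with 38.9 to 72.5 TPM and 834 to 1436 counts per library, and was higher in TpB by 4.61 ± 0.26 on the log2 scale (SE, adjusted p = 1.27e-15). Otos had 2.81 to 7.21 TPM in MdB and was higher in TpB by 6.16 ± 0.42 (adjusted p = 7.12e-14). Otor had 2 to 11 counts per MdB library and was higher in TpB by 5.72 ± 0.37 (adjusted p = 2.36e-14). Coch was the member with the highest level in both bones.

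The genes of the acellular gels were close to absent from MdB. Otog reached 18 counts summed over the 11 libraries, 9 of them in GC08, and was seen in 6 of 11. Its difference between bones was 10.46 ± 0.53 (adjusted p = 1.02e-16), and 11.66 without MdB of GC08. Otoa was seen in 11 of 11 MdB libraries with 1 to 8 counts (difference 6.88 ± 0.39, adjusted p = 1.62e-15), and Tecta in 10 of 11 with at most 5 counts (difference 5.05 ± 0.33, adjusted p = 3.84e-14). At 10 or more counts, none of the 3 genes would have been detected in any MdB library.

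Of the hair cell genes among the members, Pou4f3 separated the bones most sharply. It had 43 to 274 counts in each TpB library and 0 counts in each of the 11 MdB libraries, with 1 count in MdB of FL04. Against the limit that 0 counts allow, 3 counts over these 11 libraries together, it was at least 437-fold higher in TpB in counts scaled to the library total. Otof and Myo7a had the smallest differences. Otof had 3.18 ± 1.14 TPM (SD, n = 11) and 70 to 278 counts in MdB and was higher in TpB by 1.78 ± 0.27 (adjusted p = 8.61e-07). Myo7a had 3.06 to 5.16 TPM in MdB and was higher by 1.03 ± 0.09 (adjusted p = 4.45e-11). Its counts in MdB were 193 to 286 per library.

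**Figure D2:**
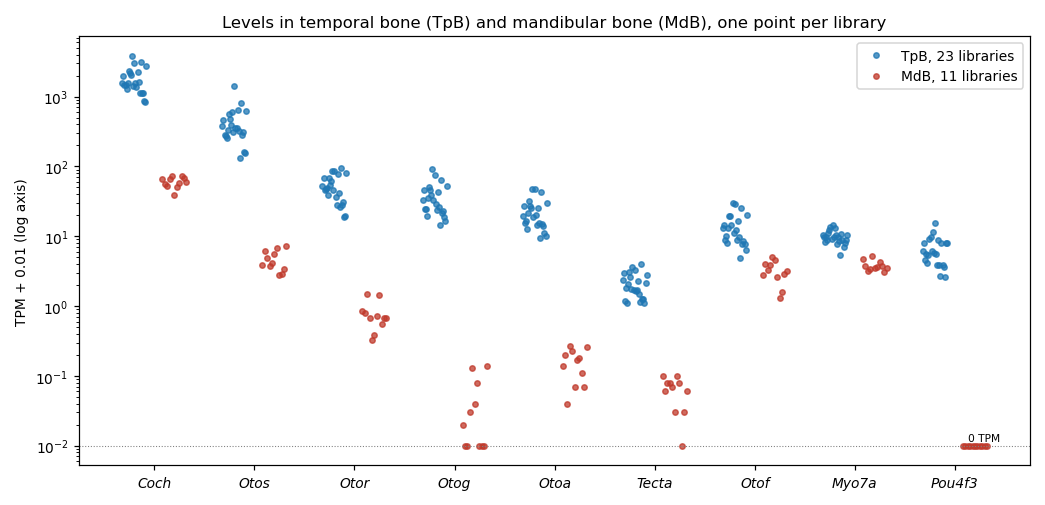
Levels of the 9 genes in 23 TpB and 11 MdB libraries, as TPM + 0.01 on a log axis with 1 point per library, so that 0 TPM lies on the dotted line. Each gene is higher in TpB. The distance is widest for Otog and for Pou4f3, which lies at 0 TPM in MdB, and narrowest for Otof and Myo7a, and the ranges meet only for Otof (4.94 TPM at the lowest in TpB and 5.06 TPM at the highest in MdB).

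Wider lists of inner ear genes, which hold the 9 genes and 72 others, were read in the same fit. Of the 72 others, 65 were called higher and 5 lower in TpB. The counts by list that follow include the members, and Otogl is in 2 lists. In the fibrocyte and lateral wall list 7 of 7 were higher, in the list of acellular membranes and otoconia 9 of 10, and in the hair cell list 27 of 31 with 4 lower. In the supporting cell list 9 of 10 were higher and 1 lower, in the stria vascularis and ion transport list 13 of 14 were higher, and in the spiral ganglion list 10 of 10. The lists' median differences were 6.16, 7.58, 5.28, 4.94, 4.18 and 9.12 on the log2 scale in this order, against 0.12 for all genes tested. Such differences were not particular to the inner ear. The median was 10.33 for neutrophils, 8.51 for middle ear epithelium, 7.34 for cerebrum neurons, 6.54 for erythroid cells and 4.92 for skeletal muscle. It was 2.89 for salivary gland, 2.76 for cartilage, 1.65 for ear canal skin, -3.47 for osteoblasts and osteocytes and -12.84 for enamel and dentin.

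The non-members that led their lists by the difference between bones were the following, with mean TPM ± SD in TpB. Pou3f4, a transcription factor of the mesenchyme around the inner ear, had 21.4 ± 9.28 TPM against 1 count in all MdB libraries together, and Tbx18 of the fibrocytes had 17.6 ± 7.43 TPM against 0.0464 TPM in MdB. Ceacam16, a tectorial membrane protein, had 101 ± 55.7 TPM against 4 counts in all MdB libraries, and Tectb, beta-tectorin, had 2.21 ± 1.21 TPM against 0 counts. Ceacam16 was therefore more abundant in TpB than Otog, the highest of the 3 members among the gel genes. Loxhd1, a hair bundle protein, had 4.58 ± 2.10 TPM against 2 counts, and Cabp2, a calcium-binding protein of hair cells, 13.7 ± 6.79 TPM against 1 count. Epyc (epiphycan) had 83.7 ± 43.1 TPM against 0.525 TPM and Otogl, otogelin-like, 2.22 ± 0.916 TPM against 10 counts. Kcne1, a potassium channel subunit of the stria vascularis, had 38.5 ± 22.3 TPM against 0.115 TPM, and Esrrb 26.8 ± 13.8 TPM against 0.112 TPM. The neurofilament genes Nefl and Nefh had 261 ± 126 and 231 ± 119 TPM against 0.0891 and 0.103 TPM, but neurofilaments are shared with other neurons, and cerebrum neuron markers were present in TpB as given above. The genes that were not called higher are named here after their values were seen. Cdh23, a cadherin of the hair bundle tip link, was lower in TpB (1.24 against 11.3 TPM), as were Fgfr3 (22.4 against 75.4 TPM), Whrn (29.4 against 43.2 TPM), Cib2 (33.8 against 40.0 TPM) and Pcdh15 (0.989 against 1.35 TPM), and Oc90, a protein of otoconia, had 0.604 TPM in TpB and 0.539 TPM in MdB (adjusted p = 0.77). Atp6v1b1 also missed the threshold (2.31 against 0.864 TPM, adjusted p = 0.058).

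The reference bone has a content of its own. In MdB, 8 enamel and dentin genes took 110015 to 220062 TPM together, with Amelx at 91174 ± 29111 TPM and Odam at 17473 ± 2656 TPM, whereas they took 0.56 to 129 TPM in TpB (Odam 16.0 ± 34.6 and Amelx 5.10 ± 9.12 TPM). The summed level of osteoblast and osteocyte genes was 52443 to 83301 TPM in MdB and 805 to 2919 TPM in TpB, and Bglap (44366 and 782 TPM on average) and Col1a1 (16254 and 468 TPM) made up most of it in MdB. Gene by gene, 6 of 9 were called lower and 2 higher in TpB, and Mepe (22.9 TPM in TpB and 0.0418 TPM in MdB), Sost (14.5 and 4.66 TPM) and Ibsp (137 and 84.8 TPM) had the higher mean in TpB. The sum of the ear canal skin list was 2562 to 4133 TPM in MdB and 10.5 to 855 TPM in TpB, carried in MdB by the basal keratins Krt14 (2058 TPM, against 45.1 ± 67.7 TPM in TpB) and Krt5 (1354 TPM, against 37.4 ± 49.6 TPM). Only 3 of its 8 genes were called lower in TpB and 5 were called higher, namely Krt10 (36.7 against 14.2 TPM), Krt1 (10.4 against 1.38 TPM), Lor (26.3 against 0.769 TPM), Sbsn (36.8 against 13.2 TPM) and Flg2 (3.04 TPM against 0 counts). Genes of the osteoblast and skin lists beyond the leading pair of each were named after their values were seen. The opposite was seen for blood. Erythroid genes took 16279 to 113138 TPM in TpB and 307 to 1546 TPM in MdB, led in TpB by Hba-a2 (26013 ± 12722 TPM) and Hbb-bs (16661 ± 7965 TPM), and neutrophil genes 880 to 12903 against 2.80 to 23.6 TPM, led by S100a9 (1719 ± 961 TPM) and Ngp (1005 ± 642 TPM). Their part in the differences of the 9 genes was not tested.

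Flight and genotype were then compared within TpB. None of the 9 genes was called in any of the 4 comparisons or in the interaction of flight and genotype, and none had an unadjusted p under 0.05 (edgeR). DESeq2 and limma on TPM called none of them either, although limma on log2(TPM + 1) gave 1 unadjusted p under 0.05, that of Myo7a between FL_WT and GC_WT (0.0453). Of the 18184 genes tested, 0% were called between FL_WT and GC_WT, 0% between FL_KO and GC_KO, 0.198% between GC_KO and GC_WT (0.077% higher in GC_KO), 0.203% between FL_KO and FL_WT (0.0715% higher in FL_KO) and 0% for the interaction, so that few genes of any kind passed in TpB. At an unadjusted p under 0.05 these comparisons held 674, 486, 528, 418 and 321 genes, and DESeq2 called 11, 6, 56, 53 and 3. A gene that misses the threshold is not thereby shown to be equal in both groups.

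Coch in GC_WT went from 831 TPM over a median of 1123 to 3175 TPM, and in FL_WT from 1407 over 2103 to 3857 TPM. In GC_KO it went from 1142 over 1582 to 2984 TPM, and in FL_KO the 5 mice FL01, FL02, FL09, FL11 and FL12 had 1574, 1993, 1489, 1457 and 1291 TPM. FL_KO was the narrowest group, and its 5 values lay within the range of each other group except that FL12 was below the lowest FL_WT mouse. The fitted difference in log2 counts was 0.22 ± 0.35 (SE) between FL_WT and GC_WT, with -0.07 within library set 1 and 0.49 within set 2. It was -0.26 ± 0.37 between FL_KO and GC_KO (sets -0.15 and -0.37), 0.01 ± 0.35 between GC_KO and GC_WT (sets -0.09 and 0.14) and -0.46 ± 0.37 between FL_KO and FL_WT (sets -0.18 and -0.72). None of these passed the test. In limma on log2(TPM + 1) all genes tested had a median of 0.17 between FL_WT and GC_WT, against 0.01 in the edgeR fit, and there the median of the 9 genes was 0.58.

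Otos varied more than any other member, by 10.9 times between GC12 (130 TPM) and GC01 (1418 TPM), both of them GC_KO mice. Its median was 298 TPM in GC_WT (158 to 804 TPM), 436 in FL_WT (309 to 609 TPM) and 356 in GC_KO, and FL_KO mice FL01, FL02, FL09, FL11 and FL12 had 376, 460, 282, 275 and 259 TPM. The group with the highest mean, GC_KO, also held the lowest value. Otos had the lowest fitted difference of the 9 genes between FL_KO and GC_KO (-0.71 ± 0.48) and the highest between GC_KO and GC_WT (0.28 ± 0.45), which is -0.20 without GC01. Otor went from 18.7 to 94.4 TPM in GC_WT, 38.4 to 87.3 TPM in FL_WT and 26.4 to 84.6 TPM in GC_KO. In FL_KO it had 52.0, 67.3, 46.1, 46.8 and 48.6 TPM in the same order of mice, so that FL02 stood above the other 4.

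Otog had medians of 22.2 TPM in GC_WT (16.3 to 64.0 TPM), 42.4 in FL_WT (33.5 to 90.6 TPM) and 27.5 in GC_KO (14.6 to 74.4 TPM). The FL_KO mice had 33.4, 45.3, 24.96, 24.6 and 19.7 TPM. Otog had the largest difference of the members between FL_WT and GC_WT (0.36 ± 0.37) and between FL_KO and FL_WT (-0.69 ± 0.40), where its unadjusted p of 0.094 was the lowest of any member in this edgeR fit (adjusted p = 0.98). Lower unadjusted p-values arose under alternatives, such as 0.0328 for Otof with only these groups fitted and 0.0274 for Otog without FL02, and none of them passed after adjustment. FL02 was the only FL_KO mouse above the lowest FL_WT mouse. Otoa had 10.1 to 43.3 TPM in GC_WT, 18.8 to 46.8 in FL_WT, 9.32 to 47.0 in GC_KO and 12.7 to 26.7 in FL_KO. Tecta had 1.09 to 3.95, 1.67 to 3.56, 1.12 to 3.30 and 1.11 to 2.96 TPM in the same order, and the lowest difference between GC_KO and GC_WT (-0.20 ± 0.34).

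Among the hair cell genes, Otof had medians of 8.15 TPM in GC_WT (6.27 to 25.3 TPM), 17.1 in FL_WT (11.2 to 29.5 TPM) and 11.1 in GC_KO (4.94 to 29.3 TPM), and 13.3, 14.6, 8.71, 10.1 and 7.92 TPM in the FL_KO mice. Pou4f3 had medians of 5.91 TPM in GC_WT (2.56 to 8.06 TPM), 7.64 in FL_WT (5.34 to 11.5 TPM) and 4.77 in GC_KO (2.71 to 15.6 TPM), and 6.07, 7.87, 4.53, 5.54 and 4.12 TPM in the FL_KO mice. Groups overlapped for both genes in all comparisons. Myo7a was the most even member, with 7.02 to 10.8 TPM in GC_WT, 9.21 to 14.5 in FL_WT, 5.45 to 13.3 in GC_KO and 8.39 to 10.5 in FL_KO. Over all libraries its highest value was 2.66 times its lowest, against 3.62 to 10.9 times for the other 8 genes.

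Across the members, log2 differences ran from -0.04 (Otos) to 0.36 (Otog) between FL_WT and GC_WT, with 8 of 9 above 0. They ran from -0.71 (Otos) to 0.04 (Otor) between FL_KO and GC_KO, with 8 of 9 below 0, and from -0.20 (Tecta) to 0.28 (Otos) between GC_KO and GC_WT, with 3 above 0. Between FL_KO and FL_WT all 9 were below 0, from -0.69 (Otog) to -0.13 (Otor), with a median of -0.45 against 0.02 for all genes tested, and none was called. Those 9 signs are not 9 separate observations, because the genes vary together between libraries (within library set 1, 7 of 9 were below 0, and 8 of 9 without FL08). Without GC01, 4 of 9 were below 0 between FL_KO and GC_KO (median 0.01) and 9 of 9 between GC_KO and GC_WT, whereas without GC03 all 9 were above 0 between GC_KO and GC_WT. Between FL_WT and GC_WT, the median of 0.22 became 0.52 without GC03, 0.06 without FL08, 0.08 without GC08 and 0.11 without GC07, and within library set 1 it was 0.01 with 5 of 9 above 0. The interaction ran from -0.67 (Otos) to -0.12 (Otor), and that of Coch was -0.48 ± 0.50. These comparisons share groups with one another, so that one wide group, such as GC_WT, enters several of them. The other 68 inner ear genes tested in TpB also had 0 calls, with 55 of 68 below 0 between FL_KO and FL_WT (median -0.41) and 56 of 68 above 0 between FL_WT and GC_WT (median 0.13). Of all genes tested, 53.2% were above 0 between FL_KO and FL_WT (median 0.02) and 53.8% between FL_WT and GC_WT (median 0.01). The signs of the 68 genes are likewise not taken as separate observations. By list, the median between FL_KO and FL_WT was -0.41 for fibrocytes and lateral wall, -0.39 for acellular membranes and otoconia, -0.46 for hair cells, -0.27 for supporting cells, -0.52 for stria vascularis and -0.17 for the spiral ganglion. In the same comparison the median was 0.70 for cerebrum neurons, -0.44 for ear canal skin and -0.13 for middle ear epithelium. It was -0.68 for enamel and dentin, -0.43 for salivary gland (2 genes tested), -0.42 for cartilage and -0.15 for osteoblasts and osteocytes. For neutrophils it was -0.06, for erythroid cells 0.11 and for skeletal muscle 0.19. Medians as low as those of the inner ear lists were thus not particular to them. Between FL_WT and GC_WT, where 8 of the 9 members were above 0, the genes of ear canal skin (median -1.05), skeletal muscle (-0.90), erythroid cells (-0.66) and middle ear epithelium (-0.55) were below 0 in 8 of 8 each, with none called. The part of these tissues in the differences was not tested.

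**Figure D3:**
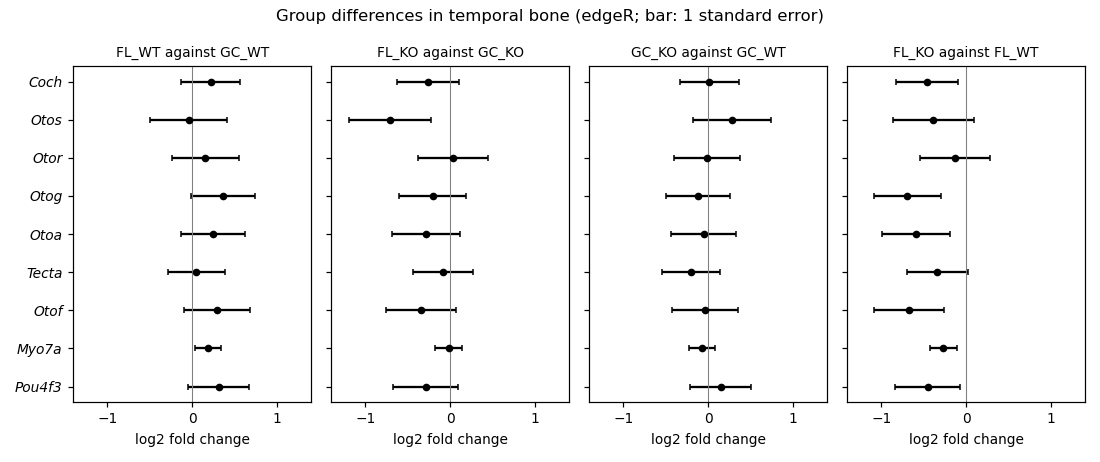
Differences of the 9 genes between groups in temporal bone, as log2 fold change from edgeR with bars of 1 standard error. Between FL_KO and FL_WT all 9 points lie below 0, from -0.69 to -0.13, and no gene was called in any panel.

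The members rose and fell together between libraries. FL08 and GC01 were among the 5 highest of 23 libraries for 9 of 9 genes, and GC07 and GC12 among the 5 lowest for 9 of 9. FL08 is FL_WT, GC01 and GC12 are GC_KO and GC07 is GC_WT, so among these libraries both ends hold ground mice and both genotypes. The low end was not even over the groups. GC05, GC06 and GC08, all GC_WT, were among the 5 lowest for 6, 4 and 6 genes, and FL12 of FL_KO for 5. No FL_WT mouse was among the 5 lowest for any gene. At the high end, GC03 and GC10 of GC_WT were among the 5 highest for 7 and 6 genes, and FL05 of FL_WT for 6. Over the 36 pairs of members, Pearson's r of log2(TPM + 1) in 23 libraries had a median of 0.87, from 0.68 for Otor with Myo7a to 0.99 for Otog with Otoa.

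Relations of Coch with the 8 others were tested over the 23 libraries with 100000 permutations, two-sided. For Otoa, Pearson's r was 0.95 and Spearman's rho 0.95 (p = 1e-05 each, the smallest value that these permutations can give). Otog (r = 0.95, rho = 0.95), Otof (0.94 and 0.96), Otor (0.94 and 0.92) and Otos (0.89 and 0.91) reached the same p. Tecta had r = 0.83 and rho = 0.81, Pou4f3 0.78 and 0.80 and Myo7a 0.74 and 0.79, with a largest p of 8e-05 for the r of Myo7a. Adjusted over the 8 relations, the values lay between 1.6e-05 and 8e-05 for r. These tests weigh r against 0 only, and the share of all genes with such r to Coch is not given here. Such values are therefore not shown to be particular to the members. Myo7a had r = 0.91 with Znfx1, a gene in none of the inner ear lists, against 0.74 with Coch. Without FL08 and GC03, the libraries farthest from the median of Coch, r was between 0.69 (Myo7a) and 0.94 (Otor). Within library set 1 (11 libraries) r went from 0.78 to 0.98 and within set 2 (12 libraries) from 0.69 to 0.96. In set 2, r fell to 0.37 for Tecta, 0.40 for Myo7a and 0.42 for Pou4f3 when the 2 libraries farthest from its median of Coch were left out, so that for these genes the relation rests on those libraries there. For deviations from the group means r was 0.72 to 0.96, so that the relations are found within groups.

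**Figure D4:**
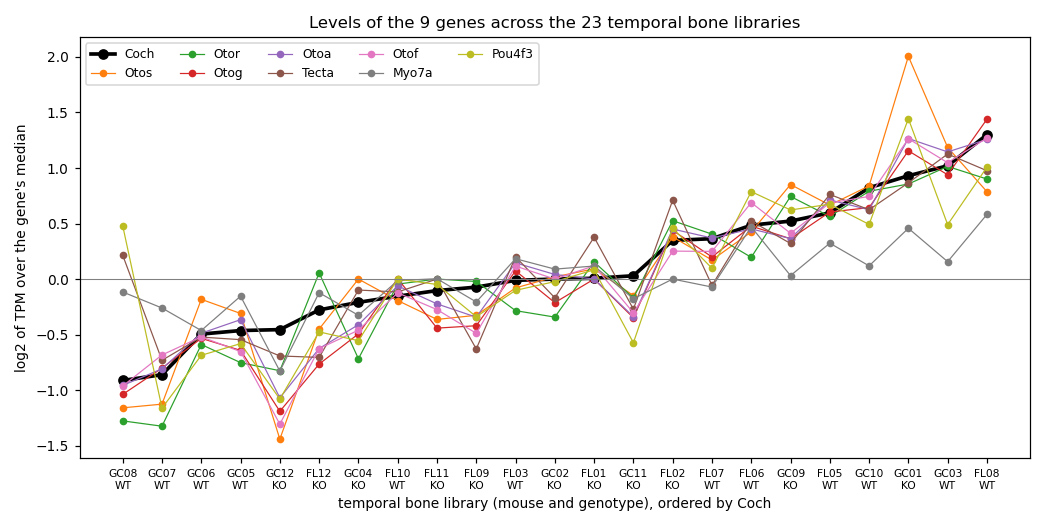
Log2 of the TPM of each of the 9 genes over its median, in the 23 temporal bone libraries ordered by Coch (thick black line). The coloured lines follow Coch from GC08 (831 TPM of Coch) to FL08 (3857 TPM), with Myo7a the flattest line, and with departures from Coch such as Otos in GC01 (1418 TPM) and Pou4f3 in GC08 (7.99 TPM).

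Ratios between members were steadier than their levels. The SD of log2 TPM was 0.59 for Coch, 0.78 for Otos, 0.70 for Otog and 0.67 for Otoa, whereas the SD of the log2 ratio to Coch was 0.37 for Otos, 0.24 for Otor, 0.23 for Otog, 0.21 for Otoa and 0.25 for Otof. Coch was 40.1 to 78.1 times Otog, with the ends at GC01 and GC12, and 2.10 to 8.78 times Otos, with the same ends. Myo7a was different, since the SD of its ratio to Coch (0.41) exceeded that of its level (0.31). With the level of Coch as a covariate in the edgeR fit, added after the values had been seen, none of the 8 others was called in any comparison (lowest adjusted p = 0.805). Otor had the lowest unadjusted p in that fit, 0.0041 between FL_KO and GC_KO, with a difference of 0.39 ± 0.12 (adjusted p = 1.0).

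The summed marker RNA of other tissue moved with Coch in 2 of 10 lists. Over 23 libraries, log2(TPM + 1) of Coch went down with the summed level of middle ear epithelium genes (r = -0.61, rho = -0.66, permutation p = 0.0018 and 0.00096, adjusted over 10 relations 0.0138 and 0.0049). It also went down with genes of ear canal skin (r = -0.60, rho = -0.65, p = 0.00276 and 0.00098, adjusted 0.0138 and 0.0049). Without FL08 and GC03 r was -0.58 and -0.53, and within library sets 1 and 2 it was -0.74 and -0.52 for the epithelium and -0.68 and -0.52 for skin. These relations pool the groups and were not read within groups, so differences between groups can enter r. Middle ear epithelium was led by Bpifb1 (7555 ± 14860 TPM) and Bpifa1 (2287 ± 1845 TPM), secreted proteins of the airway lining, and in FL_KO mice its list ranged from 546 to 10668 TPM with a median of 1312 TPM. Foxj1 and Tekt1 of this list had means of 21.5 and 8.72 TPM, so the summed level says little about them.

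The other 8 lists did not pass after adjustment, with r of -0.39 for cerebrum neurons (Slc17a7 132 ± 93.3 TPM, Grin1 81.8 ± 62.9 TPM), -0.36 for skeletal muscle (Acta1 3016 ± 1863 TPM, Tnnt3 2121 ± 1332 TPM), -0.41 for salivary gland (Amy1 22.4 ± 3.34 TPM, Bhlha15 3.67 ± 6.37 TPM) and 0.26 for osteoblasts. It was -0.19 for enamel and dentin, 0.48 for cartilage (Comp 62.6 ± 20.6 TPM, Col2a1 24.9 ± 7.96 TPM), -0.12 for neutrophils and 0.41 for erythroid cells. For cartilage, r was 0.04 in library set 1 and 0.81 in set 2. Skeletal muscle was nearly absent only from GC01 (11.5 TPM against at least 1344 TPM in the other 22 libraries), which is also the library with the most Otos, Otoa and Pou4f3. Whether the amount of other tissue set the levels of the inner ear genes was not tested.

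**Figure D5:**
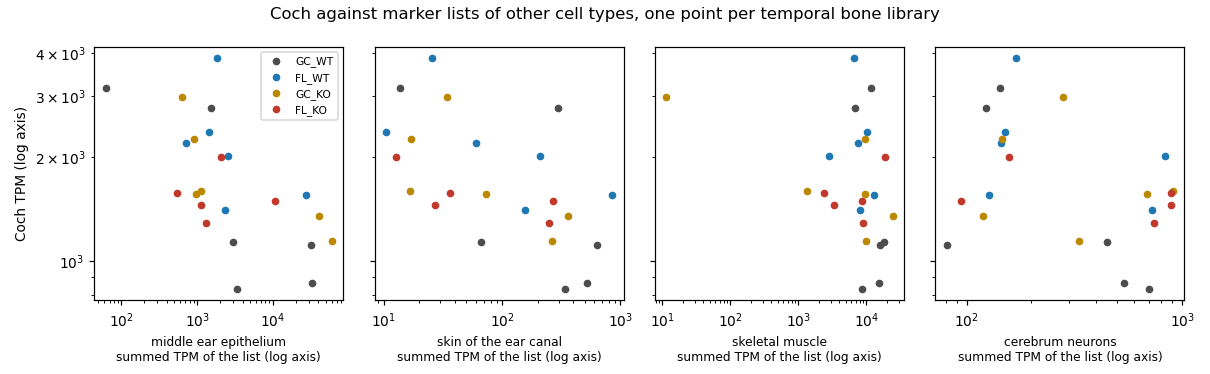
Coch (TPM, log axis) against the summed TPM (log axis) of 4 lists of marker genes for other cell types, with 1 point per temporal bone library, coloured by group. Coch goes down as the summed levels of middle ear epithelium genes (r = -0.61) and ear canal skin genes (r = -0.60) go up. The point far to the left for skeletal muscle is GC01.

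The 3 genes with the pattern most like each member were sought by Pearson's r of log2(TPM + 1) over 23 libraries, among 17394 genes with a mean of at least 1 TPM. They included other members only for Otog, Otoa, Otof and Otor. Otog, Otoa and Otof each had the other two as their nearest genes (r = 0.99), followed by Myo15b for Otog (0.98) and by Enpep for Otoa (0.99) and Otof (0.98). Coch had Enpep (0.97), Gjb2 (0.97), a gap junction gene of supporting cells and fibrocytes, and Gas2 (0.97). Otor had the pigment gene Slc45a2 (0.94), Coch (0.94) and Gjb2 (0.94), and Otos had Aif1l (0.96), S100a1 (0.96) and Ush1c (0.95). Tecta had Cacna2d4 (0.93), Wfikkn2 (0.92) and Otol1 (0.91), the gene of the otoconial matrix protein otolin. Pou4f3 had the sensory neuron channel gene Asic3 (0.96), Prx (0.96), a gene of myelinating Schwann cells, and Cldn19 (0.96). Whether cells other than hair cells add to the level of Pou4f3 in TpB was not tested. Myo7a had the lowest likeness, with Znfx1 (0.91), Kif13b (0.91) and Fchsd1 (0.91), of which none is in the inner ear lists. Libraries share a common composition, and many genes follow each other across them.

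In the other 7 tissues of the same mice, Coch, Otof and Myo7a were the members found at more than 1 TPM on average. Coch had 766 ± 101 TPM (SD, n = 23) in spleen, where follicular dendritic cells are a known source of cochlin, and 31.4 ± 3.12 TPM in cerebrum, and at most 0.697 TPM in the remaining 5 tissues. Its lowest TpB library (831 TPM) was thus below the highest spleen (973 TPM), and the SD in spleen was 101 TPM against 781 TPM in TpB. Otof had 9.76 ± 1.401 TPM in cerebrum. Summed cerebrum neuron markers in TpB were at 80.9 to 908 TPM, and their part in the level of Otof there was not tested. Myo7a was found in each tissue, from 1.79 ± 0.539 TPM in thymus (sequenced from rRNA-depleted RNA, unlike the others) to 14.2 ± 1.01 TPM in spleen, and TpB (9.83 TPM) was second. Otos, Otor, Otog, Otoa, Tecta and Pou4f3 had means of at most 0.468 TPM in any of these 7 tissues.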

How the data were processed

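RNA of 9 tissues (192 samples), poly(A) RNA except for thymus, where total RNA was depleted of rRNA, was sequenced with a strand-specific kit, and the authors aligned single reads with STAR 2.6.1 to mm10 and quantified GENCODE vM20 genes with RSEM 1.3.1; the strand setting of the counting is not given in the sources used here. The deposited table gives RSEM expected counts (estimated counts, not normalized) and, from the authors' same RSEM run, TPM values, which are normalized for length and library; 192 FPKM columns were not used.

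Expected counts were rounded and tested with edgeR 4.0.16 (quasi-likelihood, TMM factors, low counts removed by group, R 4.3.3), with Benjamini-Hochberg adjustment over all genes tested and calls at an adjusted p under 0.05. All 4 TpB groups entered 1 fit without FL04, and TpB was set against MdB in another. Levels are TPM, and fold changes are in scaled counts. The SE of an edgeR difference is not given by the test itself. It was calculated as the size of the difference divided by the square root of the test's F statistic. Correlations used log2(TPM + 1), scipy 1.17.1 and 100000 permutations. DESeq2 1.42.0, limma 3.58.1 on log2(TPM + 1) and log2(TPM + 0.1), other factors, filters, blocks and left-out mice were the alternatives. The fit with Coch as a covariate, the leaving out of further mice, the correlations on deviations from group means and outside other-cell lists, and the relations of Coch with other cell types were added after seeing the data. The scripts were tested on simulated data. Within TpB each mouse is 1 library, so p-values there measure the spread between mice. The fit of TpB against MdB holds 23 TpB and 11 MdB libraries, and each MdB mouse also gave a TpB library. Its p-values ignore this pairing, which only the alternative with the mouse as a block takes up. Counting limits cover counting error only.

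The members and gene lists were chosen with earlier results of these data known. Genes named beside the members were the 2 non-members of each inner ear list with the largest difference between bones among those called higher, the 3 genes most like each member, the 2 genes of each other-cell list with the highest mean TPM in TpB, and Nfe2l2 as a check of genotype. Flight and ground mice of the same number are different animals, and TpB and MdB of a mouse come from the same animal by the labels; correlations of TpB with MdB deviations were -0.08 to 0.10. In 72 pairs of replicates, chi-square per degree of freedom was at least 5.47, so none was a library deposited again. Sequences are RefSeq entries for GRCm38.p6.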

Additional observations from a re-analysis of the deposited data

Results flagged for a closer look

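In FL_KO, Otor of FL02 (67.29 TPM) lay apart from the other 4 mice, of which the nearest had 52.02 TPM, a gap of 0.719 of the range of the group. In FL_WT, Otog of FL08 (90.59 TPM) lay apart from the other 5, of which the nearest had 50.75 TPM, a gap of 0.698 of the range. These were 2 of 36 combinations of gene and group, and chance marks about 1 in 20.

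Members were also measured in tissues outside the comparisons. Coch had a mean of 765.77 TPM in spleen and 31.4 TPM in cerebrum, and Otof had 9.76 TPM in cerebrum. Myo7a had 14.2 TPM in spleen, 9.28 TPM in kidney, 7.49 TPM in epididymal white adipose tissue and 6.97 TPM in cerebrum. TpB of FL04, left out of the comparisons, had 1394 TPM of Coch.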

How the results depend on the processing

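No member was called between groups of TpB in any of 131 fits (lowest adjusted p = 0.377), and 9 of 9 were called between TpB and MdB in 20 of 20 fits, including that with the mouse as replicate block (Coch 4.54, Otof 1.89). Numbers did not pair flight with ground mice: deviations of same-numbered mice had r from -0.51 to 0.75 and only number 11 of KO matched itself best. With the mouse number as replicate block no member was called either, and Otos went to 0.25 between FL_WT and GC_WT. Differences near 0 changed sign, and the cause was not tested. Otos between FL_WT and GC_WT was 0.015 with library set as a block, 0.42 with limma at either pseudocount (0.421 at 0.1, 0.420 at 1) and 0.24 within set 2. Coch was -0.067 there within set 1, and between GC_KO and GC_WT -0.092 within set 1 and -4.3e-05 with no filter. Otor between FL_KO and GC_KO was -0.11 with FL04 and -0.20 within set 2, and between FL_KO and FL_WT 0.34 with Coch as a covariate and 0.16 within set 1. For the interaction, Otor was 0.36 with Coch as a covariate and 0.43 within set 1, and Otos 0.022 with Coch as a covariate.

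With each mouse left out in turn, Otos ran from -0.22 to 0.31 between FL_WT and GC_WT and from -0.20 to 0.63 between GC_KO and GC_WT, Coch from -0.14 to 0.33 and Tecta from -0.36 to 0.11 in the latter, and Otor from -0.12 to 0.26 between FL_KO and GC_KO, from -0.29 to 0.0034 between FL_KO and FL_WT and from -0.48 to 0.10 for the interaction. Nfe2l2 missed the adjusted threshold within single library sets (-1.33 and -1.43 on the ground, -1.60 and -1.45 in flight), where fewer samples were fitted.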
